A study of Mus musculus with 8 samples.

Results

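Cells in which GFP messenger RNA was detected were compared with cells in which it was not, in bone marrow of mice transplanted with JAK2V617F-transduced donor cells. A cell counted as GFP-detected when its barcode held at least 1 unique molecular identifier (UMI, a tag that marks 1 captured transcript) of the GFP feature, and as GFP-negative when it held 0. A barcode was kept if it had 500 or more genes, 1000 or more UMIs, and mitochondrial genes below 10% of its UMIs. By this rule 66 of 6490 kept cells of the library Gli1KO_JAK2V617F and 98 of 3602 kept cells of the library WT_JAK2V617F were GFP-detected. These made up 164 of the 10092 kept cells under JAK2V617F, and 216 of the 22078 kept cells of all 4 libraries were GFP-detected. The cells were selected on their raw GFP count, so GFP itself is described here and supports nothing else.

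Donor marrow came from Gli1 knockout or WT mice aged 8 weeks and was harvested 48 h before transplantation. It was transduced with a JAK2V617F retrovirus or, as the control, a JAK2WT retrovirus. Each recipient, a female B6.SJL mouse aged 8 to 10 weeks and irradiated with 10.5 Gy, received the transduced cells. Marrow was taken on day 112. For each of the 4 combinations of genotype and virus, the marrow of 3 mice was hashed with antibodies and depleted of CD11b, GR1, TER119, B220 and CD3 on magnetic columns. After pooling, viable lineage-negative cells were sorted in a GFP-positive and a GFP-negative fraction and measured with 10x Genomics 3′ v3.1 chemistry. The proportion of the fractions loaded is not given in the sources used here, and the hashing libraries were not analysed here. Each library is thus 1 pool of 3 mice, cells are not replicates, and no test was made. All intervals are 95% intervals for counting error only, and are exact except those of matched GFP-negative levels, which are gamma intervals.

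JAK2 is the tyrosine kinase through which the receptors for erythropoietin, thrombopoietin and several granulocyte growth factors signal to STAT transcription factors. The V617F substitution lies in its pseudokinase domain and leaves the kinase active without the hormone, and it is the commonest driver of the myeloproliferative neoplasms, in which red cells, platelets and granulocytes are overproduced and the marrow may become fibrotic. In transduction models a fluorescent reporter marks the cells that carry the virus, while irradiation-resistant host cells and donor cells that escaped transduction lack it. A reporter transcript of low abundance is missed in most droplets even when the cell makes it. A cell with 0 GFP UMIs is therefore not shown to lack the vector.

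GFP was close to the limit of detection in both JAK2V617F libraries. Among the GFP-detected cells of Gli1KO_JAK2V617F, 59 held 1 GFP UMI, 6 held 2 and 1 held 3. In WT_JAK2V617F, 93 cells held 1 GFP UMI and 5 held 2. Just outside the rule lay 6424 and 3504 cells with 0 UMIs in the Gli1 knockout and WT libraries. As UMIs of a gene in every 1000000 UMIs of a group of cells (CPM), GFP stood at 0.674 CPM (interval 0.529 to 0.846) in kept cells of Gli1KO_JAK2V617F and 1.87 CPM (1.53 to 2.27) in those of WT_JAK2V617F. The ratio of Gli1KO over WT was 0.360 (0.263 to 0.490). Sorting and loading could set this ratio, and their part in it cannot be told apart from that of the genotype. Sex-linked transcripts, given below, also differed between these libraries, and the part of sex cannot be told apart from the genotype either. The JAK2WT libraries held 7 GFP-detected cells among 3999 in GLI1KO_JAK2WT (0.175%) and 45 among 7987 in WT_JAK2WT (0.563%).

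GFP-detected cells were deeper sequenced than GFP-negative cells. Their median was 20780.5 UMIs, against 13699.5 in GFP-negative cells of Gli1KO_JAK2V617F, and 16843 UMIs against 13057.5 in GFP-negative cells of WT_JAK2V617F. The detected share grew with depth in both libraries, but the GFP level in CPM did not. Of cells with 1000 to 5000 UMIs, 0.276% (Gli1KO_JAK2V617F) and 1.42% (WT_JAK2V617F) were GFP-detected, whereas of cells with at least 40000 UMIs the shares were 3.28% and 7.63%. In CPM, GFP stood at 1.21 (0.393 to 2.83) and 5.43 (2.60 to 9.98) in cells with 1000 to 5000 UMIs. Cells with 20000 to 40000 UMIs had 0.474 CPM (0.297 to 0.718) and 1.32 CPM (0.910 to 1.86), and those with at least 40000 had 0.642 and 1.61 CPM. After each cell had been thinned to 5000 UMIs, GFP was detected in 17 of 5042 cells (0.337%) of Gli1KO_JAK2V617F and in 34 of 2899 cells (1.17%) of WT_JAK2V617F. The makeup and the gene contrasts below were therefore matched on total UMIs. The shares and GFP levels by cell class and the Jak2 levels by class and by GFP count were not. The median mitochondrial share was alike in GFP-detected and GFP-negative cells, at 2.02% and 2.04% in Gli1KO_JAK2V617F and at 2.32% and 2.25% in WT_JAK2V617F. Doublet calls were made for 7 of 66 GFP-detected cells (10.6%, 4.37 to 20.6%) and 6.97% of GFP-negative cells in Gli1KO_JAK2V617F. In WT_JAK2V617F they were made for 8 of 98 GFP-detected cells (8.16%, 3.59 to 15.5%) and 4.62% of GFP-negative cells.

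Of the whole series, 5 to 18 cell barcodes were shared between any pair of libraries among kept cells. Gli1, the gene knocked out in the donors, gave 0 UMIs in GFP-detected cells of either JAK2V617F library. In GFP-negative cells it gave 5 UMIs in Gli1KO_JAK2V617F and 2 UMIs in WT_JAK2V617F, too few to check the genotype labels.

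Cells of the female recipients lack Y-linked transcripts, and in the Gli1 knockout library cells with such transcripts were about as frequent among GFP-detected as among GFP-negative cells. Kept cells of Gli1KO_JAK2V617F mostly held Y-linked transcripts and no Xist, the RNA that silences an X chromosome in female cells. Of its 66 GFP-detected cells, 49 held a Y-linked UMI (74.2%), against 72.0% of its GFP-negative cells, and 1 held a Xist UMI (1.52%), against 0.996% of its GFP-negative cells. These shares were not matched on depth, and the GFP-detected cells were the deeper ones. GFP was detected in 48 of 4651 donor-like cells with Y-linked UMIs alone (1.03%, 0.762 to 1.37%). Among cells with neither kind of UMI it was detected in 17 of 1774 (0.958%), at a median depth of 4923 UMIs. In CPM, GFP was 1.40 (0.865 to 2.14) in those cells and 0.552 (0.412 to 0.724) in donor-like cells. GFP was detected in 0 of 43 host-like cells with Xist UMIs alone, which allows a share of up to 8.22%. The median depth was 17365 UMIs in donor-like and 4183 UMIs in host-like cells, so a lower share in host-like cells was not detectable at this depth. In WT_JAK2V617F, 93 of 98 GFP-detected cells held Xist UMIs and 0 held Y-linked UMIs, and donor and host cells could not be told apart by sex.

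GFP was unevenly spread over the cell types, which were named from fixed marker genes after clustering in which GFP, Xist and the Y-linked genes took no part. Cluster 31, mast cell/basophil-like, held GFP-detected cells at 13 of 40 (32.5%, 18.6 to 49.1%) in Gli1KO_JAK2V617F and 14 of 49 (28.6%, 16.6 to 43.3%) in WT_JAK2V617F. After thinning, the shares were 6 of 35 (17.1%) and 6 of 34 (17.6%). In CPM, GFP in cluster 31 was 42.8 times (23.4 to 74.7) that of the other cells of Gli1KO_JAK2V617F and 21.3 times (11.7 to 36.6) that of the other cells of WT_JAK2V617F. Without cluster 31, GFP was detected in 53 of 6450 cells (0.822%) and in 84 of 3553 cells (2.36%). Mesenchymal stromal-like cells, which the transplant does not replace, held 0 of 48 (up to 7.40%) and 0 of 53 (up to 6.72%) GFP-detected cells. Their median depths of 4981.5 and 3181 UMIs leave the background share poorly bounded. Lymphoid, plasma and plasmacytoid cells together held 4 of 1067 (0.375%) in Gli1KO_JAK2V617F and 1 of 288 (0.347%) in WT_JAK2V617F. Their median depths were low, at 4151 and 2615 UMIs, and their GFP levels of 0.577 CPM (0.157 to 1.48) and 0.821 CPM (0.0208 to 4.57) had intervals that held the 0.674 and 1.87 CPM of all kept cells. After thinning, GFP was detected in 1 of 328 of them (0.305%) in Gli1KO_JAK2V617F and 0 of 36 in WT_JAK2V617F.

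**Figure D1:**
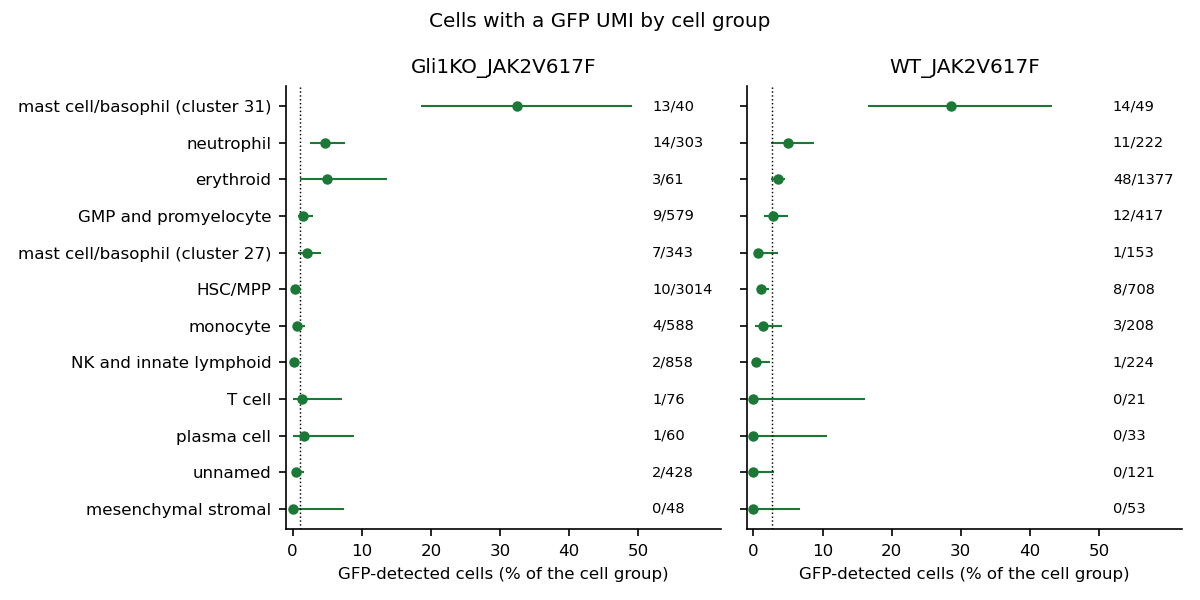
Share of GFP-detected cells in each cell group, in per cent of the group, for Gli1KO_JAK2V617F (left) and WT_JAK2V617F (right). Points are shares, lines are exact 95% binomial intervals for counting error, dotted lines mark the whole library, and the fractions give GFP-detected over all kept cells. Cluster 31 stands at 32.5% and 28.6%, while HSC/MPP-like cells lie at 0.332% and 1.13%.

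Among the other blood lineages, the shares before thinning were higher in neutrophil-like and erythroid-like cells than in stem cell-like and monocyte-like cells. GFP was detected in 14 of 303 neutrophil-like cells (4.62%) of Gli1KO_JAK2V617F and 11 of 222 (4.95%) of WT_JAK2V617F. In CPM this was 4.70 times (2.52 to 8.29) and 1.81 times (0.871 to 3.38) the level in the other cells of each library. After thinning, GFP was detected in 1 of 267 neutrophil-like cells (0.375%) of Gli1KO_JAK2V617F, beside 0.337% of all its cells, and in 3 of 177 (1.69%) of WT_JAK2V617F, beside 1.17%. The GFP-detected neutrophil-like cells had a median of 47269 UMIs, against 14482 in GFP-negative ones, in Gli1KO_JAK2V617F, and 30470 against 10628 in WT_JAK2V617F. Of the GFP-detected neutrophil-like cells, 2 of 14 in Gli1KO_JAK2V617F and 5 of 11 in WT_JAK2V617F were doublet calls. The part of doublets in these shares was not tested. Erythroid-like cells held 3 of 61 (4.92%) in Gli1KO_JAK2V617F and 48 of 1377 (3.49%) in WT_JAK2V617F, and WT_JAK2V617F drew 49.0% of its GFP-detected cells from them. In CPM this was 3.84 times (0.774 to 11.7) and 1.55 times (1.03 to 2.33) the level in the other cells, and the first interval held equal levels. After thinning, GFP was detected in 0 of 54 erythroid-like cells (up to 6.60%) of Gli1KO_JAK2V617F and 20 of 1182 (1.69%, 1.04 to 2.60%) of WT_JAK2V617F. Granulocyte-monocyte progenitor (GMP) and promyelocyte-like cells held 9 of 579 (1.55%) and 12 of 417 (2.88%). The stem and multipotent progenitor-like class (HSC/MPP) held 10 of 3014 (0.332%) and 8 of 708 (1.13%). Its GFP level in CPM was 0.236 times (0.112 to 0.452) and 0.397 times (0.167 to 0.814) that of the other cells. Monocyte-like cells held 4 of 588 (0.680%) and 3 of 208 (1.44%), although their median depths of 35730.5 and 28839.5 UMIs were the greatest of these classes.

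Cluster 31 stood apart from cluster 27, the other cluster named mast cell/basophil-like, both in GFP and in its genes. By the mean standardised level of fixed markers, cluster 27 scored 2.42 for mast cells and basophils but 3.18 for eosinophils. Its name rests on 5 mast cell and basophil markers among its 10 leading genes, against 2 of other classes, and is uncertain. In cluster 27, GFP was detected in 7 of 343 cells (2.04%) of Gli1KO_JAK2V617F and 1 of 153 cells (0.654%) of WT_JAK2V617F. In CPM this was 2.76 times (1.14 to 5.76) and 0.305 times (0.00764 to 1.74) the level in the other cells. In the JAK2WT libraries, cluster 27 held 0 of 87 (GLI1KO_JAK2WT) and 4 of 120 (WT_JAK2WT, 3.33%) GFP-detected cells. The leading genes of cluster 31 were Ccl6, a chemokine, Fcer1a, the ligand-binding chain of the IgE receptor, Prss34 and Mcpt8, proteases of mouse basophils, and Akr1c18 and Cyp11a1, steroid-metabolising enzymes, followed by Cd200r3, Il4, Ccl3 and Ccl4. Kit, the stem cell factor receptor kept by mast cells, gave 3 UMIs in cluster 31 of Gli1KO_JAK2V617F and 0 UMIs in that of WT_JAK2V617F. Mcpt4, a protease of connective tissue mast cells, gave 0 UMIs in both. Prg2, the eosinophil major basic protein, gave 6 and 1 UMIs there, against 3206 and 4215 CPM in cluster 27. No cell of either JAK2WT library fell in cluster 31. Its 40 and 49 cells were called doublets 0 and 1 times. These genes took part in the clustering and are given as a description of the cluster.

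The makeup of the GFP-detected cells followed from these shares. When each GFP-detected cell was set beside up to 10 GFP-negative cells of its library with like total UMIs, 19.7% (10.9 to 31.3%) of the 66 GFP-detected cells of Gli1KO_JAK2V617F lay in cluster 31, against 0.455% of the GFP-negative cells. In WT_JAK2V617F the figures were 14.3% (8.04 to 22.8%) of the 98 GFP-detected cells and 1.02% of the GFP-negative cells. Neutrophil-like cells made up 21.2% of GFP-detected and 6.55% of GFP-negative cells in Gli1KO_JAK2V617F, and 11.2% (5.74 to 19.2%) and 6.41% in WT_JAK2V617F, where the interval held the GFP-negative share. HSC/MPP-like cells went the other way, with 15.2% of GFP-detected and 44.7% of GFP-negative cells in Gli1KO_JAK2V617F and 8.16% and 19.8% in WT_JAK2V617F. Monocyte-like cells made up 6.06% and 17.4% in Gli1KO_JAK2V617F, and 3.06% (0.636 to 8.69%) and 7.51% in WT_JAK2V617F, where the interval again held the GFP-negative share. Erythroid-like cells made up 4.55% (0.947 to 12.7%) of GFP-detected and 0.455% of GFP-negative cells in Gli1KO_JAK2V617F, where the counts were 3 and 3 cells. In WT_JAK2V617F they made up 49.0% (38.7 to 59.3%) and 37.5%. Both intervals lay above the GFP-negative share. The GMP and promyelocyte-like class lay within the counting interval of the GFP-detected share in both libraries, at 13.6% and 11.7% in Gli1KO_JAK2V617F and 12.2% and 15.6% in WT_JAK2V617F. Cluster 27 made up 10.6% (4.37 to 20.6%) of GFP-detected and 4.25% of GFP-negative cells in Gli1KO_JAK2V617F, and 1.02% (0.0258 to 5.55%) and 4.18% in WT_JAK2V617F. The direction of both cluster 27 and the GMP and promyelocyte-like class differed between the libraries.

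**Figure D2:**
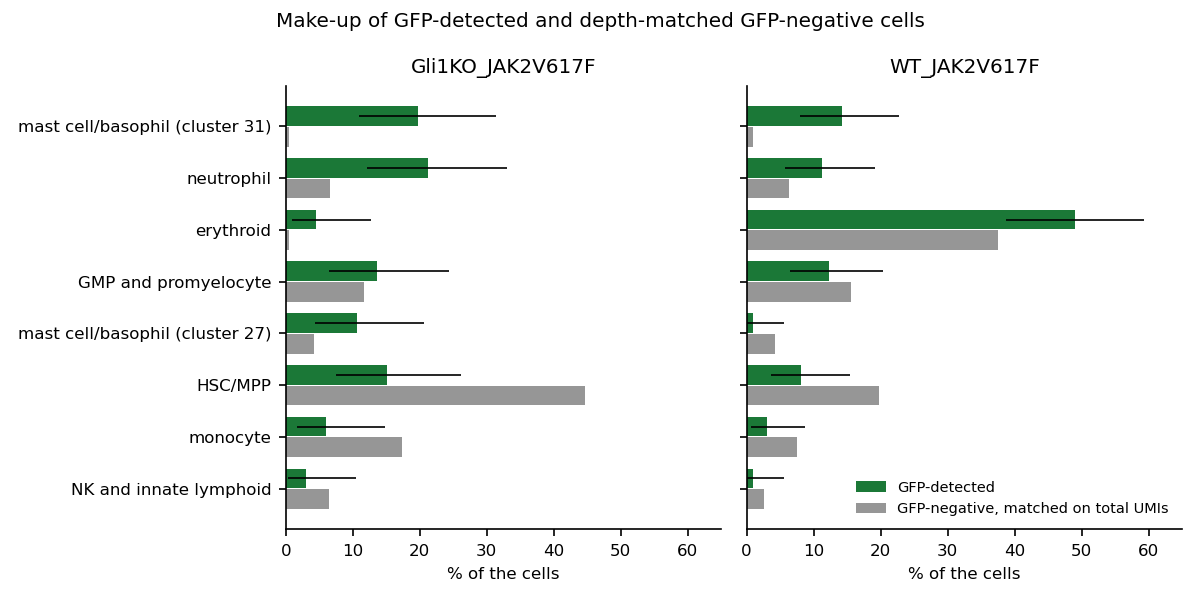
Makeup of GFP-detected cells (green) and of GFP-negative cells matched on total UMIs (grey), in per cent of each set of cells, for Gli1KO_JAK2V617F (left) and WT_JAK2V617F (right). Black lines are exact 95% binomial intervals of the GFP-detected share. Beyond the interval in both libraries, cluster 31 and erythroid-like cells were more frequent and HSC/MPP-like cells less frequent among GFP-detected cells. The erythroid-like shares of Gli1KO_JAK2V617F rested on 3 cells in each set. In Gli1KO_JAK2V617F but not in WT_JAK2V617F, neutrophil-like cells and cluster 27 were more frequent and monocyte-like cells less frequent beyond the interval.

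Matched on total UMIs alone, GFP-detected cells carried more basophil and granule transcripts and fewer antigen-presentation transcripts. Levels are CPM over the summed cells of a group, and ratios are log2 of GFP-detected over GFP-negative CPM after adding 10 CPM to both. Genes were measured where either group had at least 10 CPM. In Gli1KO_JAK2V617F, 447 of 7852 measured genes were at least 1.5-fold higher in GFP-detected cells (5.69%) and 287 at least 1.5-fold lower (3.66%). In WT_JAK2V617F, 226 of 7810 were higher (2.89%) and 96 lower (1.23%). In both libraries together, 153 of 7367 were higher (2.08%) and 43 lower (0.584%). The median over all measured genes was -0.11 in Gli1KO_JAK2V617F and -0.03 in WT_JAK2V617F. The control library WT_JAK2WT, matched in the same way, had the same directions, with a median over all measured genes of -0.07. Its medians were 1.06 for mast cell and basophil genes, 2.32 for alarmin and secondary granule genes and -1.03 for MHC class II genes.

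The 6 genes highest in both libraries were Ccl6, Mcpt8, Akr1c18, Prss34, Cyp11a1 and Hdc, the histidine decarboxylase that makes histamine. Ccl6 had 1244 CPM in GFP-detected cells and 82.1 CPM in GFP-negative cells of Gli1KO_JAK2V617F, a log2 ratio of 3.77. In WT_JAK2V617F it had 755 CPM in GFP-detected and 51.0 CPM in GFP-negative cells, a log2 ratio of 3.65. Of these genes all but Hdc are among the leading genes of cluster 31 given above. Mcpt8 had log2 ratios of 3.76 and 2.57, Prss34 of 3.95 and 2.14, Akr1c18 of 2.89 and 2.29, Cyp11a1 of 2.60 and 2.03, and Hdc of 1.89 and 1.97 in Gli1KO_JAK2V617F and WT_JAK2V617F. Of 18 mast cell and basophil genes, 15 of 17 measured in Gli1KO_JAK2V617F and 12 of 16 in WT_JAK2V617F were past 1.5-fold higher and 0 lower in either, with medians of 1.37 and 1.22. Without cluster 31 the median of that list in WT_JAK2V617F was -0.44, below 0, while in Gli1KO_JAK2V617F it did not change direction. Among them Cpa3, mast cell carboxypeptidase, differed in direction, with 341 CPM in GFP-detected and 158 CPM in GFP-negative cells of Gli1KO_JAK2V617F (log2 1.06). It had 111 CPM in GFP-detected and 158 CPM in GFP-negative cells of WT_JAK2V617F (log2 -0.47).

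Neutrophil transcripts went with the larger neutrophil-like share. S100a8 and S100a9, the paired calcium-binding alarmins of neutrophils, had log2 ratios of 2.20 and 2.36 in Gli1KO_JAK2V617F and 1.35 and 1.30 in WT_JAK2V617F. S100a8 reached 37948 CPM in GFP-detected and 8238 CPM in GFP-negative cells of Gli1KO_JAK2V617F, and 16176 CPM and 6332 CPM in those of WT_JAK2V617F. A single cell held 24.8% and 21.8% of the S100a8 UMIs of the GFP-detected cells. Lcn2, lipocalin-2, an iron-scavenging protein of secondary granules, had log2 ratios of 2.09 and 1.19. Of 16 alarmin and secondary granule genes, 13 were higher and 3 lower past 1.5-fold in Gli1KO_JAK2V617F, and 12 higher and 0 lower in WT_JAK2V617F, with medians of 1.78 and 0.78. Cebpe, a transcription factor needed for secondary granules, had log2 ratios of 1.47 and 0.67.

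Antigen-presentation, monocyte and plasma cell genes were lower in GFP-detected cells. The 6 genes lowest in both libraries were Prg2, Jchain, Cd74, F13a1, Ms4a6c and BC035044. Cd74, the MHC class II invariant chain and a receptor for MIF, had 79.0 CPM in GFP-detected and 221.9 CPM in GFP-negative cells of Gli1KO_JAK2V617F, and 5.68 CPM and 87.3 CPM in those of WT_JAK2V617F. Its log2 ratios were -1.38 and -2.63. Of 10 MHC class II genes, 0 were higher and 6 of 7 measured were lower past 1.5-fold in Gli1KO_JAK2V617F, and 0 higher and 5 of 6 lower in WT_JAK2V617F, with medians of -0.95 and -1.05. F13a1, coagulation factor XIII of monocytes, had log2 ratios of -1.23 and -0.99, and Ms4a6c, a monocyte membrane protein, -0.95 and -1.11. Jchain, the joining chain of secreted antibody, had log2 ratios of -1.89 and -4.20. In Gli1KO_JAK2V617F 1 cell held 91.3% of the Jchain UMIs of the GFP-detected cells.

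Genes of stem and progenitor cells were divided. Cd34, a surface protein of progenitors, had log2 ratios of -0.84 and -0.80, and Kit of -0.51 and -0.55. Gata2, a transcription factor shared by stem cells, mast cells and basophils, had 1.54 and 1.07, with 154 CPM in GFP-detected and 46.6 CPM in GFP-negative cells of Gli1KO_JAK2V617F. Over 20 HSC-associated genes the medians were -0.42 and -0.20. Of 22 MYC and ribosome biogenesis factors, 21 were below 0 in both libraries, beside 3381 of all 7367 genes measured in both. Their medians were -0.45 and -0.26, and Npm1, Fbl and Myc were past 1.5-fold lower in Gli1KO_JAK2V617F and 0 in WT_JAK2V617F. Npm1, nucleophosmin, had log2 ratios of -0.65 and -0.34, Fbl, fibrillarin, -0.65 in Gli1KO_JAK2V617F.

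**Figure D3:**
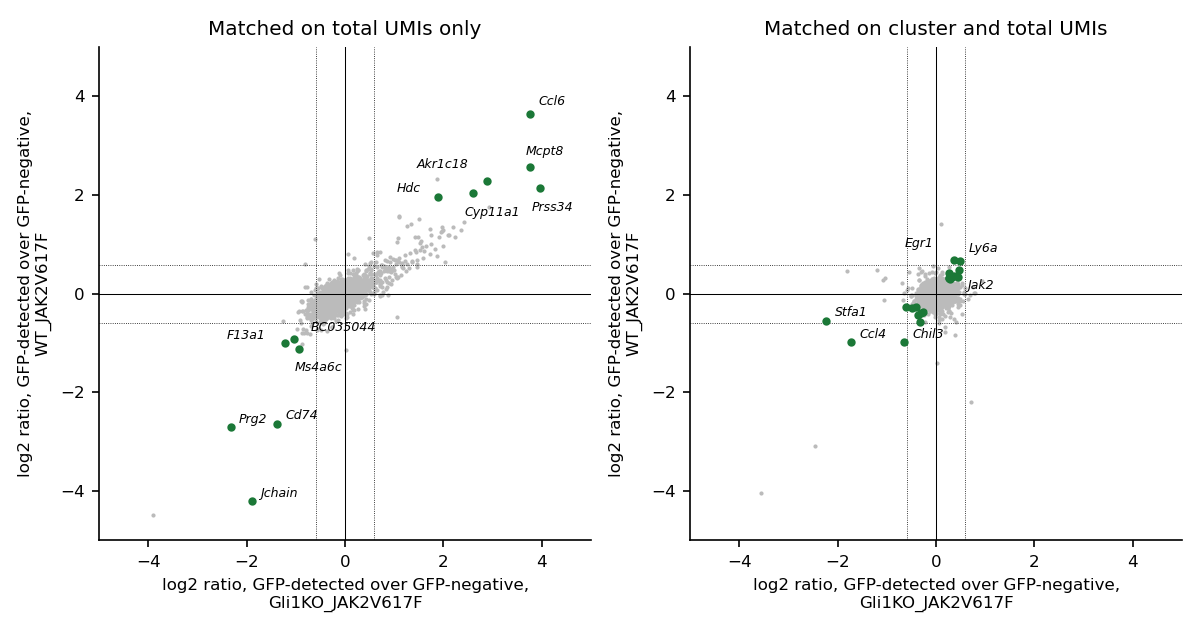
Log2 ratio of GFP-detected over GFP-negative cells in Gli1KO_JAK2V617F (horizontal) and WT_JAK2V617F (vertical), after matching on total UMIs only (left) and on cluster and total UMIs (right). Each grey point is 1 gene with at least 50 CPM in the higher group of each library, green points are the genes named by rule, and dotted lines mark 1.5-fold. The spread along the diagonal in the left panel, led by Ccl6, is not seen in the right panel.

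Matching within clusters removed most of these differences. Each GFP-detected cell was set beside GFP-negative cells of its own cluster and total UMI bin, which left 64 GFP-detected and 444 GFP-negative cells in Gli1KO_JAK2V617F and 93 and 794 cells in WT_JAK2V617F. In Gli1KO_JAK2V617F, 54 of 7772 genes were at least 1.5-fold higher (0.695%) and 51 lower (0.656%). In WT_JAK2V617F, 23 of 7739 were higher (0.297%) and 25 lower (0.323%). In both libraries, 2 of 7216 were higher (0.0277%) and 5 lower (0.0693%). Across the 2440 genes with at least 50 CPM, the ratios of the libraries had a Pearson correlation of 0.05, against 0.79 across 2655 genes after matching on total UMIs alone. Genes of 1 library share cells and depth, and these coefficients are descriptions across genes. No cell class held 50 matched GFP-detected cells in both libraries, so no class was contrasted gene by gene on its own.

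The few genes past 1.5-fold in both libraries, chosen after their values were seen, rested on few cells. Stfa3, a stefin protease inhibitor of granulocytes, and Iigp1, an interferon-induced GTPase, were higher. Stfa3 had log2 ratios of 0.91 and 0.69, and 1 cell held 43.0% and 41.3% of its UMIs in GFP-detected cells of Gli1KO_JAK2V617F and WT_JAK2V617F. Iigp1 had log2 ratios of 1.38 and 0.68, and 1 cell held 72.7% and 26.2%. Prg2, Chil3, Igkc, Ccl4 and Igha were lower. Of the Igkc UMIs in the GFP-negative cells, 1 cell held 52.7% in Gli1KO_JAK2V617F and 88.8% in WT_JAK2V617F, and of the Igha UMIs 1 cell held 49.99% and 96.1%. Both are antibody genes.

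Jak2 itself was higher in GFP-detected cells of the same cluster and depth. The gene (ENSMUSG00000024789) lies on chr19:29251828-29313080 of mm10, plus strand. In Gli1KO_JAK2V617F it had 84.5 CPM (71.6 to 99.0) in GFP-detected cells and 58.5 CPM (50.4 to 67.8) in matched GFP-negative cells, a log2 ratio of 0.46. In WT_JAK2V617F it had 89.5 CPM (75.9 to 104.8) in GFP-detected cells and 61.1 CPM (54.7 to 68.6) in matched GFP-negative cells, a log2 ratio of 0.48. The counting intervals did not overlap in either library. Of the 2440 genes with at least 50 CPM, Jak2 ranked 2 by the smaller of its ratios in the libraries. It was not among the genes used for clustering. A Jak2 UMI was seen in 76.6% of GFP-detected and 61.1% of matched GFP-negative cells of Gli1KO_JAK2V617F, and in 62.4% and 51.97% of those of WT_JAK2V617F. No single cell held more than 7.2% of the Jak2 UMIs of the GFP-detected cells in Gli1KO_JAK2V617F, or 7.1% in WT_JAK2V617F. Counts of 3′ ends assigned to the mouse gene do not separate mutant from normal Jak2 or vector from endogenous transcripts. In WT_JAK2WT the matched ratio was 0.48 as well, with 58.3 CPM in 44 GFP-detected cells and 38.9 CPM in 402 GFP-negative cells, from 33 Jak2 UMIs.

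The Jak2 level was higher in GFP-detected cells of each class shown for both, though not always beyond the counting error. In cluster 31 Jak2 had 280.5 CPM (210.7 to 366.0) in 13 GFP-detected and 194.2 CPM (159.6 to 234.0) in 27 GFP-negative cells of Gli1KO_JAK2V617F, with overlapping intervals. In that of WT_JAK2V617F it had 480.5 CPM (370.1 to 613.6) in 14 GFP-detected and 269.3 CPM (216.9 to 330.7) in 35 GFP-negative cells. Cluster 31 had the highest Jak2 level of the classes shown among GFP-negative cells as well as among GFP-detected cells. In neutrophil-like cells it had 69.6 CPM and 49.2 CPM in Gli1KO_JAK2V617F, and 82.5 CPM and 49.1 CPM in WT_JAK2V617F, with overlapping intervals in both. In GMP and promyelocyte-like cells it had 52.4 CPM (31.1 to 82.8) in GFP-detected and 18.9 CPM (16.8 to 21.1) in GFP-negative cells of Gli1KO_JAK2V617F, and 38.2 CPM (21.4 to 63.0) and 24.4 CPM (21.5 to 27.6) in those of WT_JAK2V617F. The lowest level shown belonged to plasma cell-like GFP-negative cells, at 3.78 CPM in Gli1KO_JAK2V617F and 10.4 CPM in WT_JAK2V617F. In the 10 GFP-detected HSC/MPP-like cells of Gli1KO_JAK2V617F Jak2 had 80.5 CPM (44.0 to 135.0), against 27.1 CPM (25.6 to 28.6) in the 3004 GFP-negative ones. In the 48 GFP-detected erythroid-like cells of WT_JAK2V617F it had 67.4 CPM (50.2 to 88.7), against 48.6 CPM (45.5 to 51.8) in the 1329 GFP-negative ones, again with overlapping intervals. These class values were matched on neither depth nor cluster within the class.

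**Figure D4:**
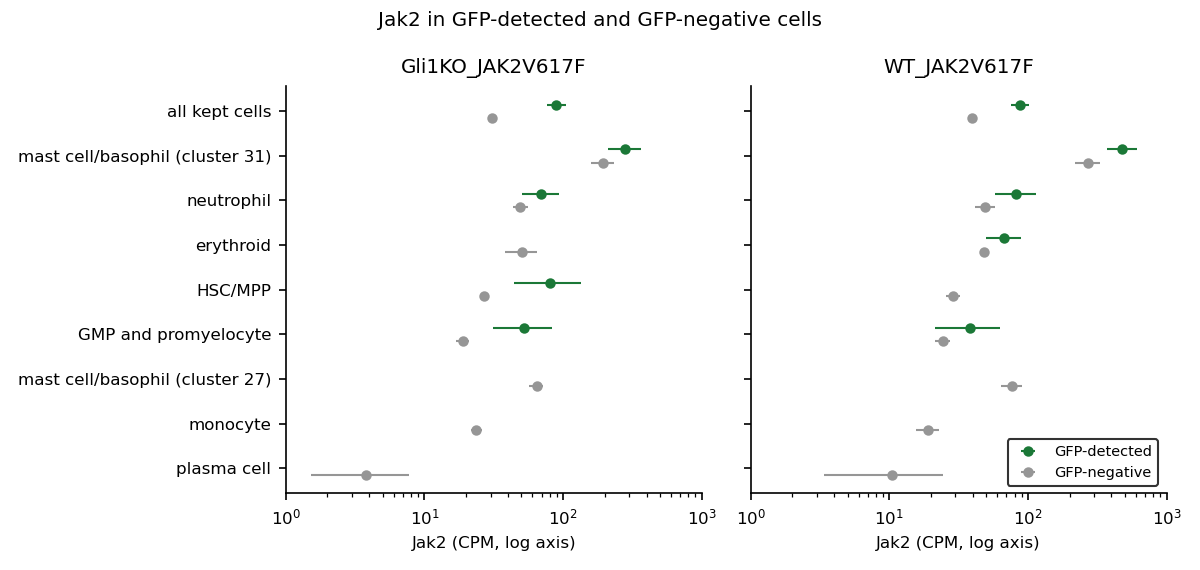
Jak2 level in CPM (log axis) in GFP-detected cells (green) and all GFP-negative cells (grey) of each cell group, for Gli1KO_JAK2V617F (left) and WT_JAK2V617F (right). Lines are exact 95% Poisson intervals for counting error, and a group is drawn where it held enough cells. In every group with both points, the GFP-detected point lies to the right.

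Jak2 was also graded with the GFP count. In Gli1KO_JAK2V617F it had 30.9 CPM (29.8 to 31.9) in cells with 0 GFP UMIs, 70.01 CPM (58.0 to 83.7) with 1 and 388.0 CPM (270.3 to 539.6) with 2. In WT_JAK2V617F it had 39.8 CPM (38.1 to 41.5) with 0, 78.7 CPM (66.5 to 92.6) with 1 and 300.1 CPM (194.2 to 443.1) with 2. Only 6 and 5 cells held 2 GFP UMIs, and 1 neutrophil-like cell of Gli1KO_JAK2V617F with 3 held 7 Jak2 UMIs. Of the 7 cells with at least 2 GFP UMIs in Gli1KO_JAK2V617F 4 lay in cluster 31, and of the 5 in WT_JAK2V617F 2 did. Each of these 12 cells held from 2 to 11 Jak2 UMIs. The gradient was not matched on cluster, and the share of cluster 31 moved with it, at 0.420%, 15.3% and 66.7% for 0, 1 and 2 GFP UMIs in Gli1KO_JAK2V617F and 0.999%, 12.9% and 40% in WT_JAK2V617F.

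The transcriptional targets of the JAK-STAT pathway lay near the median of all genes within clusters. Of 26 such genes, 0 of 23 measured were past 1.5-fold higher and 0 lower in Gli1KO_JAK2V617F, and 0 of 21 higher and 1 lower in WT_JAK2V617F, where Ccnd1, cyclin D1, had a log2 ratio of -0.88. The medians were 0.00 and -0.10, beside medians over all measured genes of -0.02 and 0.01. Pim1, a survival kinase induced by STAT5, had 292.9 CPM in GFP-detected and 258.5 CPM in matched GFP-negative cells of Gli1KO_JAK2V617F (log2 0.17), and 256.9 CPM and 218.4 CPM in those of WT_JAK2V617F (log2 0.22). Cish, a STAT5-induced feedback inhibitor, had log2 ratios of 0.34 and 0.12. Socs2, another such inhibitor, had -0.06 and 0.20, and Bcl2l1, the survival gene of erythroid cells, -0.07 and 0.25. Myc had -0.29 and -0.10. Matched on total UMIs alone the list's medians were 0.23 and 0.17, and 6 and 4 members were past 1.5-fold higher and 1 lower in each library. The 4 higher in both were Osm, oncostatin M, a cytokine induced by STAT5 (1.65 and 1.27), Socs1, a feedback inhibitor (1.19 and 0.97), Id1, an inhibitor of differentiation (1.79 and 0.71), and Cish (0.93 and 0.97). Of the Janus kinases and STAT factors, 0 were past 1.5-fold within clusters in either library. Jak1, a kinase shared by many cytokine receptors, had log2 ratios of 0.20 and -0.10. Csf2rb, the receptor chain shared by IL-3, IL-5 and GM-CSF that uses JAK2, had 1.52 and 1.02 on total UMIs alone and 0.58 and 0.00 within clusters.

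**Figure D5:**
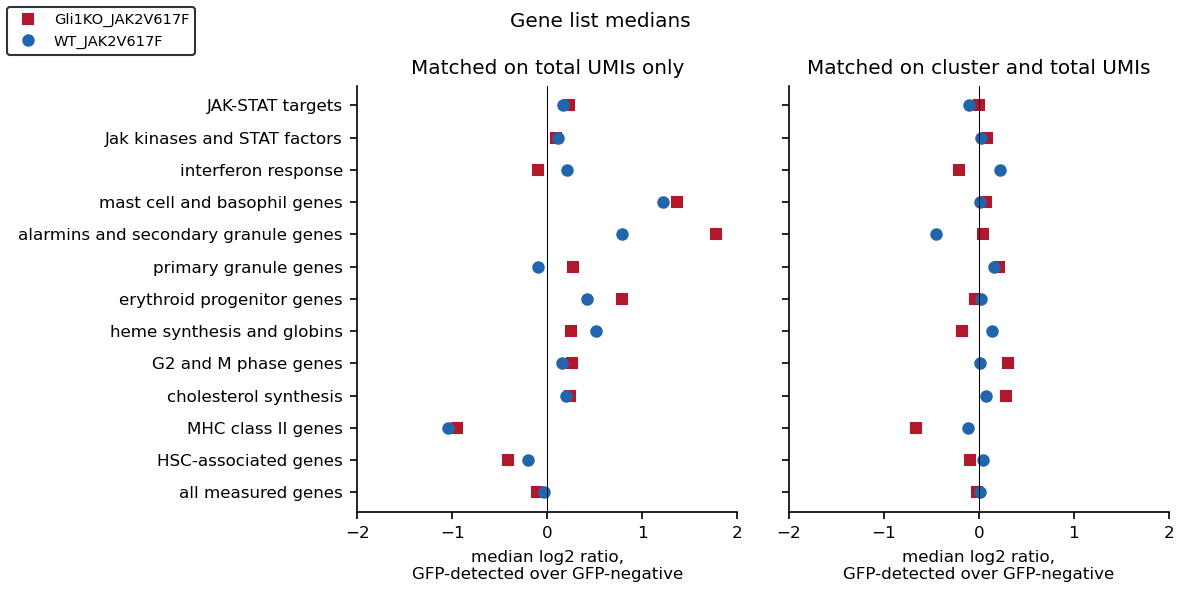
Median log2 ratio of GFP-detected over GFP-negative cells for gene lists, after matching on total UMIs only (left) and on cluster and total UMIs (right). Squares are Gli1KO_JAK2V617F, circles are WT_JAK2V617F, and the bottom row gives all measured genes. Mast cell and basophil genes lie at 1.37 and 1.22 on the left and at 0.07 and 0.02 on the right.

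Within clusters the lineage lists lay near the median of all genes, with a few that differed between the libraries. Mast cell and basophil genes had medians of 0.07 and 0.02, with 0 past 1.5-fold in Gli1KO_JAK2V617F and Gzmb (1.93), Il4 (0.68) and Il6 (0.61) higher in WT_JAK2V617F. Of primary granule genes 0 of 11 were past 1.5-fold in either library, with medians of 0.21 and 0.16. Prtn3 and Ctsg, serine proteases of primary granules, had log2 ratios of 0.28 and 0.31, and of 0.24 and 0.35, and Ms4a3, a marker of granulocyte-monocyte progenitors, of 0.45 and 0.33. Alarmins and secondary granule genes had medians of 0.05 in Gli1KO_JAK2V617F and -0.45 in WT_JAK2V617F, with 3 and 6 of 16 past 1.5-fold lower and 0 higher. Those lower in Gli1KO_JAK2V617F were S100a4 (-0.80), S100a10 (-0.67) and Chil3, and those lower in WT_JAK2V617F were Il1b (-1.43), Camp, Chil3, Ltf (-0.77), Lcn2 (-0.68) and Ngp (-0.59). Camp, the cathelicidin precursor, had 7177 CPM in GFP-detected and 7088 CPM in GFP-negative cells of Gli1KO_JAK2V617F (log2 0.02), and 905 CPM and 2409 CPM in those of WT_JAK2V617F (log2 -1.40). In WT_JAK2V617F 1 cell held 28.0% of the Camp UMIs of the GFP-detected cells. Erythroid progenitor genes had medians of -0.04 and 0.02, and heme synthesis and globin genes of -0.18 and 0.14. In Gli1KO_JAK2V617F, with 3 erythroid-like GFP-detected cells, 4 globin genes and Car1, carbonic anhydrase 1, were past 1.5-fold lower. Hbb-bs, a beta globin, had 72.2 CPM in GFP-detected and 277.9 CPM in GFP-negative cells of Gli1KO_JAK2V617F (log2 -1.81), where 1 cell held 51.5% of the GFP-detected UMIs. It had 5934 CPM in GFP-detected and 4321 CPM in GFP-negative cells of WT_JAK2V617F (log2 0.46). Globin genes share near-identical copies, so their counts may be split.

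Cell cycle and metabolic lists showed small shifts. Of 24 G2 and M phase genes, 3 were past 1.5-fold higher and 0 lower in Gli1KO_JAK2V617F and 0 either way in WT_JAK2V617F, with medians of 0.31 and 0.01. Of the 24, 13 were above 0 and 0 below 0 in both libraries. Of all 7216 genes measured in both, 1767 were above and 1965 below 0 in both. The G2 and M phase list went the other way in WT_JAK2WT, with a median of -0.42 beside -0.01 over all measured genes. Mki67, the proliferation antigen, had log2 ratios of 0.53 and 0.22, and Ube2c, a ubiquitin-conjugating enzyme of mitosis, of 0.80 and 0.01. Aurka and Prc1, both of the mitotic spindle, had 0.64 and 0.60 in Gli1KO_JAK2V617F. S phase genes had medians of -0.05 and -0.05. Cholesterol synthesis genes had medians of 0.28 and 0.07, with 2 and 0 past 1.5-fold higher, and Fdps, farnesyl diphosphate synthase, had log2 ratios of 0.69 and -0.03. The other was Lss, lanosterol synthase, at 0.64 in Gli1KO_JAK2V617F. MHC class II genes had medians of -0.66 over 7 measured genes and -0.11 over 5, with 4 and 0 past 1.5-fold lower. Those 4 were H2-Eb1 (-1.04), Cd74 (-0.85), H2-Aa (-0.72) and H2-Ab1 (-0.66), and 1 cell held 42.0% of the Cd74 UMIs of the GFP-detected cells. The interferon response list had medians of -0.21 and 0.23, and its 1 member past 1.5-fold was Isg15, a ubiquitin-like protein, at 1.51 in WT_JAK2V617F, and HSC-associated genes of -0.09 and 0.04. Unfolded protein response genes had 0 of 20 past 1.5-fold, with medians of 0.11 and 0.09, and 13 lay above and 2 below 0 in both libraries. Oxidative phosphorylation genes had medians of -0.10 and 0.02 and glycolysis and hypoxia genes of 0.06 and -0.03. Mif, the cytokine of the Cd74 receptor, had 466 CPM in GFP-detected and 599 CPM in GFP-negative cells of Gli1KO_JAK2V617F (log2 -0.35), and 732 CPM and 827 CPM in those of WT_JAK2V617F (log2 -0.17).

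Among the 10 genes highest in both libraries within clusters were Ly6a, Jak2, Egr1, Scamp2, Ms4a3, Cdk2, Prtn3, Gstm1 and S100a1. Ly6a, the stem cell antigen Sca-1, which interferon also induces, had 217.3 CPM in GFP-detected and 152.6 CPM in GFP-negative cells of Gli1KO_JAK2V617F (log2 0.48), and 165.6 CPM and 100.5 CPM in those of WT_JAK2V617F (log2 0.67). A single cell held 27.4% and 33.3% of its GFP-detected UMIs, and in WT_JAK2WT the ratio was -0.86. Egr1, an immediate early transcription factor, had 52.8 CPM in GFP-detected and 38.6 CPM in GFP-negative cells of Gli1KO_JAK2V617F (log2 0.37), and 78.5 CPM and 44.8 CPM in those of WT_JAK2V617F (log2 0.69). In WT_JAK2WT its ratio was -0.28. Scamp2, Cdk2, Gstm1 and S100a1 lay between 0.27 and 0.36 in both libraries, and none of them was past 1.5-fold in either. Of the 2440 genes with at least 50 CPM in each library, 550 were above 0 and 684 below 0 in both.

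The 10 lowest within clusters were Ccl4, Chil3, Stfa1, Retnlg, Mmp9, Lilr4b, Fcer1a, Egfl7, Crip1 and Cebpz. Chil3, a chitinase-like protein of neutrophils, had 120.6 CPM in GFP-detected and 194.5 CPM in GFP-negative cells of Gli1KO_JAK2V617F (log2 -0.65), and 210.4 CPM and 426.5 CPM in those of WT_JAK2V617F (log2 -0.99). Ccl4, a chemokine, had log2 ratios of -1.72 and -0.98, and 1 cell held 71.0% and 72.6% of its UMIs in GFP-negative cells. Both lay above 0 on total UMIs alone. Fcer1a had 309.6 CPM in GFP-detected and 440.7 CPM in GFP-negative cells of Gli1KO_JAK2V617F (log2 -0.50), and 155.2 CPM and 192.7 CPM in those of WT_JAK2V617F (log2 -0.30). Retnlg and Mmp9, genes of mature neutrophils, had log2 ratios of -0.37 and -0.44, and of -0.32 and -0.57. Crip1, a LIM domain protein, had -0.61 and -0.28, and Egfl7, an endothelial and stem cell ligand, -0.42 and -0.28. Kit had -0.18 and -0.01, and Ptprc, the leukocyte antigen CD45, 0.14 and 0.02.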

How the data were processed

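The 4 libraries of sorted mouse bone marrow cells were analysed, of which the 2 under JAK2V617F carry the comparison. The deposited files hold raw UMI counts per gene and barcode, made by the authors against mm10. The submitters' processing notes name Cell Ranger 4.0.0 and Seurat 4.0.4, with no role given. GFP is 1 of 31054 features in the files. The GFP threshold, the members and the gene lists were chosen with earlier results of these data known. Groups were taken from the sample titles.

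Kept cells numbered 3602 to 7987 per library, with a median of 4187 to 17277 UMIs. Of all barcodes, 22.0% to 31.7% had at least 10% mitochondrial UMIs and were left out. All 4 libraries entered a joint clustering in scanpy 1.11.5, using 2000 variable genes (without GFP, Xist and Y-linked genes), 30 principal components, 15 neighbours and Leiden resolution 1.0. The 32 clusters were named from fixed markers, and the names may differ from the authors'. Doublets were scored with Scrublet and left in, and the highest scores, at 0.8% per 1000 barcodes, counted as calls.

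Each GFP-detected cell was matched to up to 10 GFP-negative cells of its library, on total UMIs (bins of 0.25 on the log2 scale) or on cluster and total UMIs (bins of 0.5). Raw counts were summed per group and divided by total UMIs. Intervals are Clopper-Pearson for shares, exact Poisson for counts and gamma intervals for weighted GFP-negative sums, all at 95%. UMI counts mark molecules, but the intervals cover counting error only. A gene at 10 CPM rested on 17.2 to 19.4 UMIs in the GFP-detected cells of a JAK2V617F library, which limits the precision. Where a share of 0 is given with a limit, the limit is the upper end of its exact interval. Scripts were tested on simulated data. Gene positions came from GENCODE M21, to which 30934 features matched.

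The genes named within clusters were the 10 highest and 10 lowest by the log2 ratio nearer to 0 of both libraries, among genes of the same sign with at least 50 CPM, and on total UMIs alone the 6 highest and 6 lowest. Others are the 2 highest and 2 lowest of a list, the 3 highest and 3 lowest by the difference between libraries, and genes of the JAK2 and GLI1 pathways. Genes given with a list count and outside these rules were named after their values were seen. Predicted, ribosomal, mitochondrial and antigen receptor genes were not eligible. Of the genes these rules name, 1 is not reported here. Alternatives covered the cell filter, doublets, GFP threshold, matching, clustering, depth, added CPM, gene minimum and scaling.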

Additional observations from a re-analysis of the deposited data

Results flagged for a closer look

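GFP was also present in barcodes that the cell filter left out. In these barcodes GFP stood at 3.56 CPM in Gli1KO_JAK2V617F (18 UMIs, 2.11 to 5.63) and 6.99 CPM in WT_JAK2V617F (29 UMIs, 4.68 to 10.0). It stood at 0.316 CPM in GLI1KO_JAK2WT and 0.218 CPM in WT_JAK2WT, from 2 UMIs each. In kept cells of the JAK2V617F libraries the levels were 0.674 and 1.87 CPM. These barcodes entered no comparison.

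Jchain had opposite directions in the libraries after matching on cluster and total UMIs, with log2 ratios of 0.72 in Gli1KO_JAK2V617F and -2.20 in WT_JAK2V617F. The difference was not tested. In Gli1KO_JAK2V617F 1 cell held 91.3% of the Jchain UMIs of the GFP-detected cells, and in WT_JAK2V617F 1 cell held 92.8% of those of the GFP-negative cells. On total UMIs alone both ratios were below 0, at -1.89 and -4.20.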

How the results depend on the processing

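No analysis paired by mouse was made, because the hashing libraries were not analysed and each library was treated as 1 pool. Raising the GFP threshold to 2 UMIs left 7 cells (0.108%) in Gli1KO_JAK2V617F and 5 (0.139%) in WT_JAK2V617F, and 10.0% and 4.08% of cluster 31. At resolution 0.5 the cluster that held most of cluster 31 had GFP in 6.41% and 8.33% of its cells, and after thinning cluster 31 itself had 17.1% in Gli1KO_JAK2V617F. Jak2 stayed above 0 in both libraries under each alternative run, between 0.31 and 1.55.

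Within clusters, 2 genes were past 1.5-fold higher and 5 lower in both libraries. The higher count was 4 with the stricter cell filter, 5 without doublet calls, 4 from 10000 UMIs, 153 on total UMIs only, 120 without matching, 36 at resolution 0.5, 1 at resolution 2.0, 7 with 1 GFP-negative cell each, 14 with 1 CPM added, 0 with 50 CPM added, 0 from 50 CPM and 4 with no minimum. The lower count was 3 in donor-like cells, 43 on total UMIs only, 75 without matching, 3 with bins of 0.25, 8 at resolution 0.5, 3 with 1 GFP-negative cell each, 15 with 1 CPM added and 3 with 50 CPM added. With at least 2 GFP UMIs, on 7 and 5 cells, the counts were 350 and 441, and 501 and 668 on total UMIs only. On total UMIs only (153 and 43), the counts were 238 and 142 with 1 CPM added, 48 and 12 with 50 CPM added, 72 and 20 from 50 CPM, and 87 lower with 1 GFP-negative cell each. The cause was not tested.

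Directions changed as follows, each value a log2 ratio. Of the ratios matched on cluster, total UMIs only gave Ccl4 0.54 (Gli1KO_JAK2V617F) and 1.36 (WT_JAK2V617F), Chil3 1.36 and 0.66, and Lcn2 1.19 (WT_JAK2V617F). No matching gave Ccl4 1.30 (WT_JAK2V617F), Chil3 1.59 and 0.71, Stfa1 0.18 (Gli1KO_JAK2V617F) and Lcn2 1.19 (WT_JAK2V617F). Resolution 0.5 gave Ccl4 0.44 and 0.74, leaving out cluster 31 gave Ccl4 0.014, and 1 GFP-negative cell each gave Chil3 0.32, these last in Gli1KO_JAK2V617F. With at least 2 GFP UMIs, Cd74 was 0.55 (Gli1KO_JAK2V617F), Ccl4 4.82 and Lcn2 0.22 (WT_JAK2V617F). On total UMIs only, the same threshold gave the alarmin list -0.96 and -1.92, Lcn2 -2.26 and -1.92, Prg2 0.15, BC035044 0.018 and Mif 0.13 (Gli1KO_JAK2V617F), and Jchain 2.13 (WT_JAK2V617F). Without cluster 31, chosen after the data were seen, WT_JAK2V617F had -0.44 for the mast cell and basophil list, -2.98 for Prss34, -1.19 for Mcpt8, -1.06 for Cyp11a1, -0.28 for Hdc and -0.26 for Akr1c18, which was -0.0089 in Gli1KO_JAK2V617F. Of 815 alternatives of list medians 658 moved by less than the counting error and 3 changed direction, and of 1936 of single genes 1428 and 29.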
